A study of Mus musculus with 78 samples.

Results

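Sox9, Sox5 and Sox6, the SOX trio of cartilage, were 3 of the 52459 genes in the deposited mRNA count table, and they were found there by name. All 3 were counted in every library and passed the filter on low counts, which left 18857 genes for testing. RNA was taken from tissue-engineered mouse cartilage, grown from chondrocytes that had been made from induced pluripotent stem cells. IL-1beta (interleukin-1 beta) was given at 1 ng/mL and TNF-alpha (tumor necrosis factor alpha) at 20 ng/mL, a pair of inflammatory cytokines raised in diseased joints, and the control cartilage was left untreated. Each cytokine was sampled at 4, 12, 24 and 72 h, and the control at 0, 4, 12, 24 and 72 h. Every group had 3 libraries (a, b and c), except that 1 of the 3 controls at 0 h was left out for the reason given with the methods, so that 38 mRNA libraries were used. All groups shared the same cell source, and the labels name no genotype, strain or age and do not say whether a group's 3 libraries are 3 cultures or repeats of 1 culture. In the second case the p-values describe technical spread alone.

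SOX9 is the transcription factor without which cartilage does not form: it binds enhancers of the genes for collagen II, aggrecan and other matrix proteins and turns them on. SOX5 and SOX6 are close relatives of each other, carry no activation domain of their own, and pair with one another on DNA beside SOX9 to make its binding to cartilage enhancers more effective. SOX9 lies upstream of the other members in the embryo, where loss of SOX9 removes SOX5 and SOX6 as well. Inflammatory cytokines are known to lower SOX9 in chondrocytes, and the series title names the interplay of miRNA and mRNA as its question.

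The 3 genes lie on 3 chromosomes. In the GRCm38.p6 annotation of RefSeq, which is the same assembly as the mm10 build named in the submitters' processing notes, Sox9 is a short gene at chr11:112782210-112787757. Sox5 spans 953863 bases at chr6:143828425-144782287, and Sox6 spans 569905 bases at chr7:115470872-116040776. Start regions, from 250 bases before to 50 after an annotated start, were found in the RefSeq table for 2 of the 3 members, with 1 window for Sox5 and 6 for Sox6. They are shown as a description, since both cytokines act through the transcription factor NF-kappaB. The capitals mark the letters of the NF-kappaB motif, which is GGGA, any 4 bases and then CC, read on either strand and found in 20.7% of all 32851 windows of this length. Sox6 held 1 match in window 1 (chr7:116038695-116038994, minus strand) and 1 in window 2 (chr7:116030998-116031297, minus strand), both on the opposite strand to the gene. Windows 3 to 6 of Sox6 held none, so 2 of its 6 windows had a match. The single Sox5 window (chr6:143947057-143947356, minus strand) held none. All 7 windows lie inside the annotated genes and not at their outer ends.
Sox6 window 1: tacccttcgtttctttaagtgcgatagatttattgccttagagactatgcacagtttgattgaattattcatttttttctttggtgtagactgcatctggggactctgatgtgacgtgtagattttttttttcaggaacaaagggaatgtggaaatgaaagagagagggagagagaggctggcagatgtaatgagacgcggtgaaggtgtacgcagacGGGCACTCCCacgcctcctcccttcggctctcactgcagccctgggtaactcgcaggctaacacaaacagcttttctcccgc
Sox6 window 2: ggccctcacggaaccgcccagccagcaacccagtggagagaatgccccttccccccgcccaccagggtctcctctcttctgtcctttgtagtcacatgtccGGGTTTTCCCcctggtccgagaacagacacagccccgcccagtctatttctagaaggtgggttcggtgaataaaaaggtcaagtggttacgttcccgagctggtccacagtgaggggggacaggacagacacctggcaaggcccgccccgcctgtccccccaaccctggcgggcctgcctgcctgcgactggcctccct
Sox5 window 1: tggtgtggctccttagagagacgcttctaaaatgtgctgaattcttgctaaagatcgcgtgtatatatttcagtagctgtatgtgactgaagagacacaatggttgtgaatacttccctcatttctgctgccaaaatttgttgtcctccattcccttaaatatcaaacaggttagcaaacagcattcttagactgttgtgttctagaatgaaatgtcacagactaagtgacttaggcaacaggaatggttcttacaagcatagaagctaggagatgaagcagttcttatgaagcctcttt
The AP-1 motif TGANTCA, found in 7.81% of all windows, was in none of the 7 windows of Sox5 and Sox6. The SOX motif AACAAT, found in 10.7%, occurred only in window 5 of Sox6 (chr7:115824661-115824960), where there were 2 matches, and no match of 1 motif overlapped a match of another. A match is a description of the letters, not evidence of binding, and its part in the changes of Sox5 or Sox6 was not tested.

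Across the 38 libraries Sox9 had 816 to 8096 counts, Sox5 had 1406 to 9912 and Sox6 had 1120 to 8120, out of library totals of 11163263 to 68655350. Levels are given below as CPM, counts scaled to a common library size with the trimmed mean of M values (TMM). The exceptions are the levels and sums of the cell type markers and of the genes that set libraries apart, whose CPM were scaled by library totals alone. Per kilobase of gene length, as RPKM, which is the scale on which genes can be compared, Sox9 was the most abundant SOX gene, with a median level of 28.2 RPKM over the libraries. Sox6 followed with a median of 9.53 RPKM and Sox5 with 8.36 RPKM, close to Sox4 (7.95 RPKM) and Sox8 (6.92 RPKM). These values rest on the gene lengths in the deposited table, 4135 bases for Sox9, 14376 for Sox5 and 14832 for Sox6. The members differed in how much they varied: the highest group mean was 3.83 times the lowest for Sox9, 1.86 times for Sox5 and 1.95 times for Sox6.

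The tissue carried the cartilage markers throughout. The summed level of Col2a1, Acan, Matn1, Col9a1 and Hapln1 was 10700 to 117000 CPM, while 4 muscle markers summed to 0 to 0.907 CPM and 4 endothelial markers to 0.13 to 1.75 CPM. Markers of pluripotent cells summed to 1.43 to 3.46 CPM, of which Sox2 held 1.4 to 3.28 CPM. Fibroblast and perichondrium markers were abundant, with a sum of 4000 to 25100 CPM over all 5 genes. Markers of leukocytes summed to 1.1 to 4.96 CPM, and those of glia and neural cells to 3.67 to 10.7 CPM. The 4 adipocyte markers summed to 174 to 695 CPM, nearly all of it Fabp4 at 171 to 665 CPM, while Plin1, Cidec and Adipoq reached 16.3, 10.9 and 10.1 CPM. The 4 markers of hypertrophic chondrocytes summed to 11400 to 34300 CPM, of which Spp1 held 11200 to 34100 CPM and Col10a1 17.6 to 1240 CPM. The 8 libraries of the IL-1beta group at 4 h and of the controls at 4 and 0 h stood apart from the other 30: 12 genes, 9 of them predicted genes with Gm symbols, were more than 2-fold lower in every 1 of the 8, with a summed level of 20.7 to 50.8 CPM against 692 to 3100 CPM. A comparison that crosses this divide, such as TNF-alpha with control at 4 h, cannot be told apart from whatever separates the libraries.

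**Figure D1:**
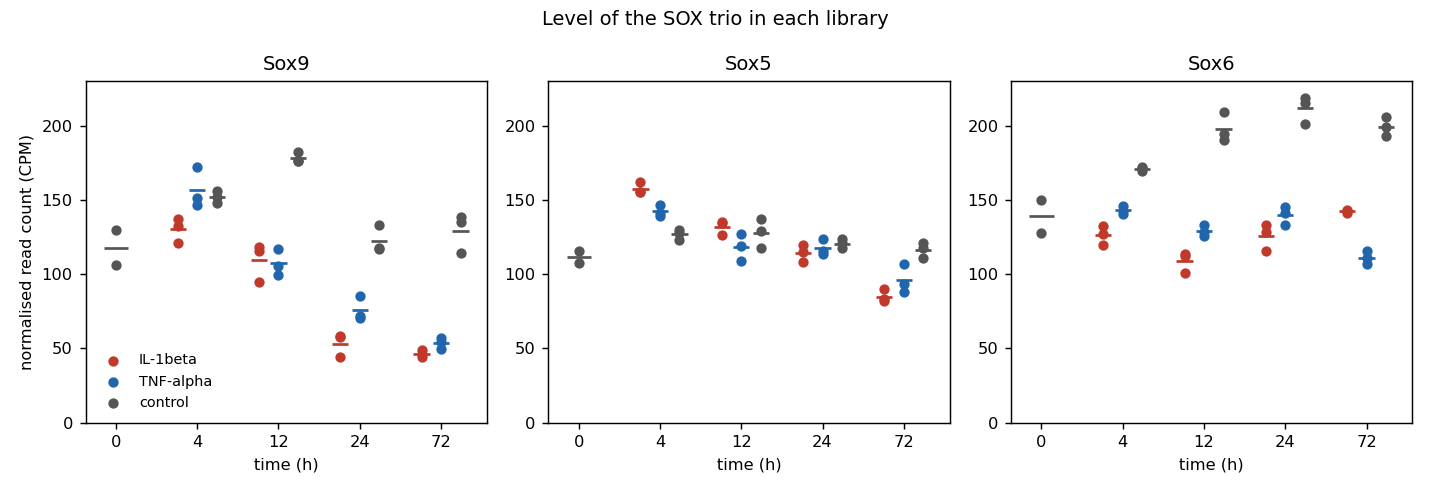
Normalised read count (CPM) of Sox9, Sox5 and Sox6 in each of the 38 libraries, by time (h, drawn as evenly spaced categories) and treatment, with a bar at each group mean. Sox9 drops with both cytokines to 43.98 to 58.1 CPM in the lowest groups, Sox5 stays within 81.66 to 162.3 CPM, and Sox6 is lower with either cytokine than in control at all 4 times.

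Sox9, the leading member, was called lower with IL-1beta at 12, 24 and 72 h, with a larger fold change at each later time. At 4 h the IL-1beta libraries had 121.1, 132.6 and 137.3 CPM, against 147.9, 152.1 and 155.9 CPM in control. All 3 lay below all 3 controls, but the log2 fold change of -0.22 ± 0.10 (standard error) did not pass the threshold of 0.05 on the adjusted p (edgeR quasi-likelihood F test, Benjamini-Hochberg over all genes tested, adjusted p = 0.0769). It passed at -0.32 with library totals in place of TMM, a scaling that lowered the median gene by a log2 value of -0.101, at -0.24 with no filter on low counts and at -0.22 in a fit of only these libraries. In that comparison 32.7% of all genes were called. Groups that did not overlap were common: of all genes 42.2%, 39.1%, 46.2% and 51.2% had them in IL-1beta over control at 4, 12, 24 and 72 h. In TNF-alpha over control these shares were 38.9%, 36.2%, 40.7% and 45.5%. In these bulk libraries fewer chondrocytes and less RNA per chondrocyte cannot be told apart.

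At 12 h the IL-1beta libraries had 94.43, 115.6 and 118.4 CPM of Sox9, against 176, 176.1 and 182.1 CPM in control. The groups were far apart, and Sox9 fell by 0.70 ± 0.10 on the log2 scale (edgeR adjusted p = 6.29e-07; 29.6% of all genes called, 15.0% as lower). At 24 h it had 44, 57.8 and 58.1 CPM with IL-1beta, against 116.8, 117.3 and 132.8 CPM in control. This was a fall of 1.20 ± 0.10 on the log2 scale, or to 0.436 of the control (edgeR adjusted p = 5.56e-12; 32.6% of all genes called, 15.6% as lower).

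At 72 h Sox9 stood at 43.98, 46.27 and 49.14 CPM in the IL-1beta libraries, against 114.1, 134.8 and 138.5 CPM in control. The log2 fold change was -1.48 ± 0.10, a level of 0.359 of the control (edgeR adjusted p = 2.08e-14; 38.9% of all genes called, 19.7% as lower). The IL-1beta effect on Sox9 was larger at 72 h than at 4 h by a log2 difference of -1.25 ± 0.14 (interaction of treatment and time, edgeR adjusted p = 7.69e-09; 30.6% of all genes called).

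With TNF-alpha Sox9 was called lower at 12, 24 and 72 h, and no change passed at 4 h. At 4 h the TNF-alpha libraries had 146.8, 151.4 and 172.4 CPM, against 147.9, 152.1 and 155.9 CPM in control, and the groups overlapped (log2 fold change 0.05 ± 0.10, edgeR adjusted p = 0.79; 21.5% of all genes called). Control at 12 h lies on the same side of the divide between libraries but is not matched in time. Set against it, the value was -0.18 ± 0.10 (edgeR adjusted p = 0.178; 26.2% of all genes called). So the sign at 4 h depends on the control used, and neither value passed.

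At 12 h Sox9 had 99.75, 105.8 and 116.8 CPM with TNF-alpha, against 176, 176.1 and 182.1 CPM in control, and fell by 0.73 ± 0.10 on the log2 scale (edgeR adjusted p = 3.65e-07; 28.4% of all genes called). At 24 h it had 70.5, 71.69 and 85.38 CPM, against 116.8, 117.3 and 132.8 CPM in control, a fall of 0.69 ± 0.10 (edgeR adjusted p = 1.24e-06; 25.0% of all genes called). Both the TNF-alpha and the control libraries were lower at 24 h than at 12 h. At 72 h it had 49.54, 54.29 and 57.02 CPM with TNF-alpha, against 114.1, 134.8 and 138.5 CPM in control, a fall of 1.27 ± 0.10 (edgeR adjusted p = 1.55e-12; 36.0% of all genes called). The TNF-alpha effect was larger at 72 h than at 12 h by a log2 difference of -0.54 ± 0.14 (edgeR adjusted p = 0.0109; 8.54% of all genes called).

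Sox5 was called higher with IL-1beta at 4 h, lower with both cytokines at 72 h, and in neither direction at 12 and 24 h. At 4 h it rose with IL-1beta, with 155.1, 155.2 and 162.3 CPM, against 123, 127.7 and 129.8 CPM in control (log2 fold change 0.31 ± 0.06, edgeR adjusted p = 0.000233; 15.5% of all genes rose). It was the only rise called for any of the 3 members against control. The TNF-alpha libraries at 4 h had 139.4, 141 and 146.9 CPM, also all above the control, with a log2 fold change of 0.17 ± 0.07 that did not pass (edgeR adjusted p = 0.062). Against control at 12 h, which is not matched in time, the TNF-alpha value was 0.16 ± 0.07 (edgeR adjusted p = 0.0776).

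At 12 and 24 h no change of Sox5 passed the test with either cytokine. At 12 h the libraries spanned 126.7 to 134.8 CPM with IL-1beta and 108.7 to 127.1 CPM with TNF-alpha, against 117.6 to 137.1 CPM in control. At 24 h they spanned 108.2 to 119.7 CPM with IL-1beta and 113.5 to 123.9 CPM with TNF-alpha, against 117.7 to 123.4 CPM in control. All of these ranges overlapped their control. The 95% intervals of these 4 log2 fold changes lay between -0.245 and 0.18.

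At 72 h Sox5 fell with both cytokines. It had 81.66, 83.2 and 89.73 CPM with IL-1beta, against 110.9, 117.6 and 120.8 CPM in control (log2 fold change -0.46 ± 0.07, edgeR adjusted p = 5.2e-07). It had 87.78, 93.71 and 106.6 CPM with TNF-alpha against the same controls (log2 fold change -0.28 ± 0.07, edgeR adjusted p = 0.000849). With library totals in place of TMM the TNF-alpha value was -0.17 and no longer passed (edgeR adjusted p = 0.0517), a scaling that raised the median gene of this comparison by 0.11. The IL-1beta effect on Sox5 at 72 h differed from that at 4 h by -0.77 ± 0.09 on the log2 scale (edgeR adjusted p = 3.17e-08), so the early rise and the late fall differed beyond their error.

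Sox6, the partner of SOX5, was the only member called lower in all 8 comparisons with control. Both cytokines share the control of each time, and TNF-alpha with control at 4 h crosses the divide between libraries. The share of all genes called lower in all 8 was not counted. At 4 h it had 119.6, 126.9 and 132.7 CPM with IL-1beta, against 169.3, 171.6 and 171.9 CPM in control (log2 fold change -0.43 ± 0.06, edgeR adjusted p = 5.29e-07; 17.2% of all genes fell). With TNF-alpha at 4 h it had 140.7, 142.8 and 146 CPM against the same controls (log2 fold change -0.26 ± 0.06, edgeR adjusted p = 0.00195; 10.6% of all genes fell). Against control at 12 h, which is not matched in time, the TNF-alpha value was -0.47 ± 0.06 (edgeR adjusted p = 2.32e-07). Untreated Sox6 had a mean of 170.9 CPM at 4 h and 198 CPM at 12 h, so the size of this fall depends on the control used.

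At 12 h Sox6 reached its lowest level with IL-1beta, 100.9, 112 and 113.3 CPM, against 190.4, 194.2 and 209.4 CPM in control, a level of 0.55 of the control (log2 fold change -0.86 ± 0.06, edgeR adjusted p = 1.33e-13). With TNF-alpha at 12 h it had 125.9, 128.2 and 133.2 CPM (log2 fold change -0.62 ± 0.06, edgeR adjusted p = 4.51e-10; 13.8% of all genes fell). At 24 h it had 115.4 to 132.8 CPM with IL-1beta and 133 to 145.2 CPM with TNF-alpha, against 201.4 to 218.4 CPM in control. These were falls of 0.75 ± 0.06 and 0.60 ± 0.06 on the log2 scale (edgeR adjusted p = 1.78e-12 and 7.91e-10; 11.9% of all genes fell with TNF-alpha).

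At 72 h the cytokines parted. Sox6 had 141.5, 142.6 and 143.2 CPM with IL-1beta, against 193.3, 199 and 205.7 CPM in control (log2 fold change -0.48 ± 0.06, edgeR adjusted p = 2.69e-08). With TNF-alpha it had 106.7, 111 and 115.7 CPM against the same controls (log2 fold change -0.84 ± 0.06, edgeR adjusted p = 1.19e-13; 18.3% of all genes fell). The 3 IL-1beta libraries at 72 h lay above every IL-1beta library of the earlier times, while the 3 TNF-alpha libraries lay below every TNF-alpha library of the earlier times. The IL-1beta libraries at 4 h are on the other side of the divide between libraries. The share of all genes with such an order was not counted. Compared directly, IL-1beta was above TNF-alpha at 72 h by 0.36 ± 0.06 on the log2 scale (edgeR adjusted p = 8.14e-06; 39.8% of all genes called), and below it at 12 h by a log2 fold change of -0.25 ± 0.06 (edgeR adjusted p = 0.00593; 10.6% of all genes called). The 12 h call was lost without IL-1beta 12 h replicate a (-0.21, edgeR adjusted p = 0.055) and in a fit of only the libraries compared (edgeR adjusted p = 0.0956). The change of this difference between 12 and 72 h was 0.60 ± 0.09 (edgeR adjusted p = 1.01e-06; 25.4% of all genes called), a comparison chosen after the values were seen. Chosen in the same way, the IL-1beta effect on Sox6 was less negative at 72 h than at 12 h by 0.38 ± 0.09 (edgeR adjusted p = 0.000746; 28.2% of all genes called).

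**Figure D2:**
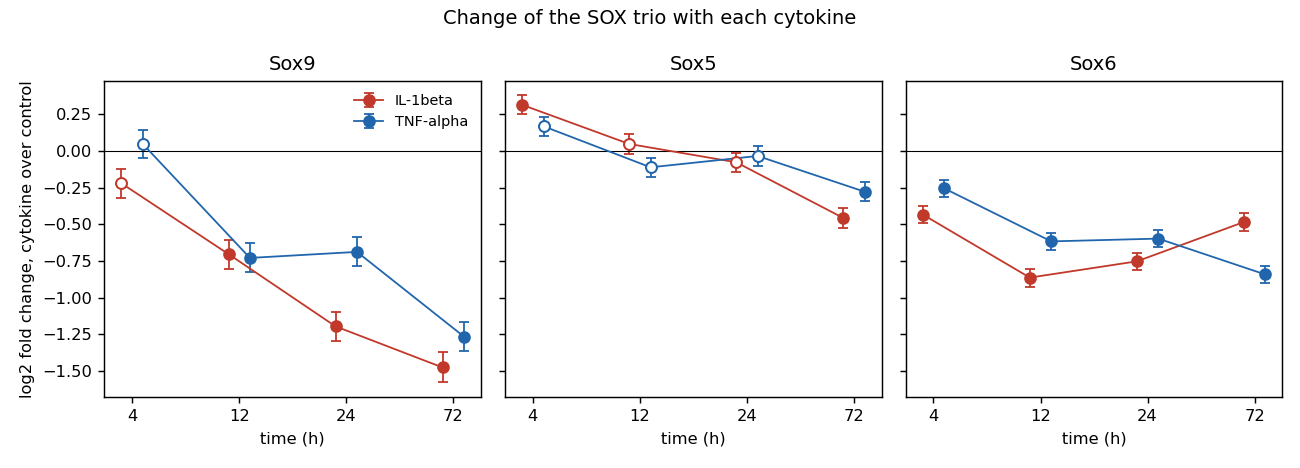
Log2 fold change of each member over the control of the same time, by time (h, evenly spaced categories), with bars of 1 standard error from edgeR; open points did not pass the threshold. Sox9 declines with both cytokines to -1.48 and -1.27, Sox5 moves from above 0 at 4 h to below 0 at 72 h, and Sox6 turns upward between 12 and 72 h with IL-1beta but not with TNF-alpha.

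The other direct comparisons of IL-1beta with TNF-alpha follow. Over all genes the groups did not overlap in 26.2%, 22.5%, 35.5% and 50.2% at 4, 12, 24 and 72 h. Sox9 was lower with IL-1beta at 24 h, at 44, 57.8 and 58.1 CPM against 70.5, 71.69 and 85.38 CPM with TNF-alpha (log2 fold change -0.51 ± 0.10, edgeR adjusted p = 0.000165; 20.1% of all genes called). At 12 h its groups overlapped (log2 fold change 0.03 ± 0.10), and at 72 h they did not overlap but the value of -0.21 ± 0.10 did not pass (edgeR adjusted p = 0.103). At 72 h Sox5 was called lower with IL-1beta (log2 fold change -0.18 ± 0.07, edgeR adjusted p = 0.0281), although the libraries overlapped. Without TNF-alpha 72 h replicate a this value was -0.10 and did not pass, nor did it without IL-1beta 72 h replicate b or c (-0.16 and -0.15, edgeR adjusted p = 0.0877 and 0.119). At 4 h the IL-1beta and TNF-alpha libraries lie on different sides of the divide described above, and there Sox6 was at the threshold (log2 fold change -0.18 ± 0.06, edgeR adjusted p = 0.0487; 12.4% of all genes called). That call was lost when any 1 of the 6 libraries was left out, with a value of -0.12 without IL-1beta 4 h replicate a.

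The untreated cartilage changed too. Sox9 rose between 0 and 4 h, to 147.9, 152.1 and 155.9 CPM at 4 h, against 105.9 and 129.9 CPM at 0 h (log2 fold change 0.36 ± 0.11, edgeR adjusted p = 0.0161; 20.4% of all genes called). Sox6 also rose, to 169.3, 171.6 and 171.9 CPM at 4 h, against 127.7 and 150.1 CPM at 0 h (log2 fold change 0.30 ± 0.07, edgeR adjusted p = 0.00158). Both calls rest on 2 libraries at 0 h: without control 0 h replicate c the values were 0.23 and 0.19 and neither passed. Later Sox9 was lower at 24 h than at 12 h by a log2 fold change of -0.54 ± 0.10 (edgeR adjusted p = 0.000132; 21.7% of all genes called), and lower at 72 h than at 12 h by -0.46 ± 0.10 (edgeR adjusted p = 0.000279; 37.1% of all genes called). No change of Sox5 or Sox6 among the controls of 12, 24 and 72 h passed the test, and between 72 and 24 h 7.42% of all genes were called. The 24 h over 12 h value of Sox6 was 0.10 ± 0.06, and with library totals in place of TMM it was 0.22 and passed (edgeR adjusted p = 0.00759), a scaling that raised the median gene by 0.12.

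In order of level, Sox9 was highest in control at 12 h (mean 178.1 CPM), which no other group overlapped, and lowest in IL-1beta 72 h (46.46 CPM), IL-1beta 24 h (53.3 CPM) and TNF-alpha 72 h (53.62 CPM), whose neighbours in this order overlapped. Sox5 was highest in IL-1beta 4 h (157.5 CPM), then TNF-alpha 4 h (142.4 CPM), each apart from the next, and lowest in IL-1beta 72 h (84.86 CPM) and TNF-alpha 72 h (96.02 CPM), which overlapped. Its other 9 groups formed a chain of overlapping neighbours between 111.6 and 132.1 CPM. Sox6 was highest in control at 24, 72 and 12 h (211.7, 199.3 and 198 CPM), which overlapped, and every cytokine group lay below control at 4 h (170.9 CPM). Its lowest groups were IL-1beta 12 h (108.7 CPM) and TNF-alpha 72 h (111.1 CPM). These orders run across the divide between libraries, and the share of all genes with such gaps between neighbours was not counted. Between IL-1beta and TNF-alpha at 4 h, which crosses the divide, the groups of 26.2% of all genes did not overlap. The Sox5 difference there did not pass (edgeR adjusted p = 0.152).

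Because the members moved at different times, the balance between them differed between groups, a measure taken within each library that does not depend on scaling. The ratio of Sox9 to Sox5 counts was lower with IL-1beta at all 4 times: it was 0.827 ± 0.0535 against 1.2 ± 0.0595 in control at 4 h, and 0.547 ± 0.00877 against 1.11 ± 0.0677 at 72 h (SD, n = 3 each). Averaged over times, the log2 difference was -0.859 (exact permutation test within times, 2-sided, p = 1.25e-05, the smallest it can give; adjusted p = 7.5e-05 over 6 ratio tests). With TNF-alpha at 12, 24 and 72 h it was -0.753 (exact permutation test, p = 0.00025, the smallest it can give; adjusted p = 0.000375). At 72 h the ratio was 0.561 ± 0.0497 with TNF-alpha, close to that with IL-1beta.

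The ratio of Sox5 to Sox6 counts was higher with both cytokines, by 0.592 with IL-1beta (exact permutation test, p = 6.25e-05, adjusted p = 0.000188) and by 0.543 with TNF-alpha (exact permutation test, p = 0.00025, adjusted p = 0.000375) on the log2 scale. With IL-1beta it was 1.25 ± 0.0433 at 4 h against 0.742 ± 0.0229 in control, and 1.22 ± 0.035 at 12 h against 0.645 ± 0.0241. At 72 h it was 0.596 ± 0.0269 with IL-1beta against 0.585 ± 0.0357 in control, and the libraries overlapped. With TNF-alpha at 72 h it was still apart, at 0.864 ± 0.0833 (SD, n = 3 in each group).

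The ratio of Sox9 to Sox6 counts changed sign over time with IL-1beta. It was 1.03 ± 0.0447 at 4 h against 0.889 ± 0.0168 in control, without overlap, and 0.326 ± 0.0162 at 72 h against 0.648 ± 0.0717 in control (SD, n = 3 each). The mean over times was a log2 difference of -0.267 (exact permutation test, p = 0.0435, adjusted p = 0.0435), which averages opposite directions. The call was lost without any 1 of 10 of the 24 libraries and with the replicate letter as a block. With TNF-alpha the mean was -0.211 (exact permutation test, p = 0.007, adjusted p = 0.0084), a mean over 12, 24 and 72 h. The TNF-alpha libraries overlapped the control at 12 and 24 h and lay below it at 72 h, at 0.482 ± 0.0156 against 0.648 ± 0.0717. At 4 h, which is not in that mean, they lay above it, at 1.1 ± 0.0964 against 0.889 ± 0.0168 (SD, n = 3 each).

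**Figure D3:**
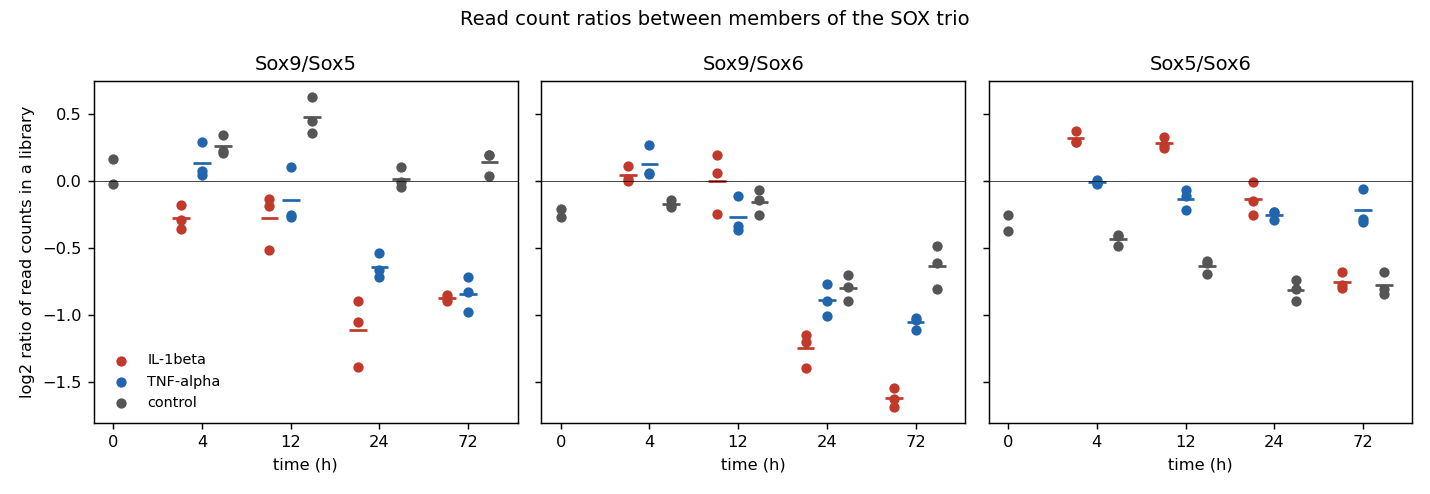
Log2 ratio of the read counts of 2 members within each library, by time (h, evenly spaced categories) and treatment, with a bar at each group mean except for control at 0 h. The Sox9/Sox5 ratio lies below control with both cytokines from 12 h, and the Sox5/Sox6 ratio with IL-1beta returns to the control range at 72 h, where TNF-alpha stays above it.

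The genes that SOX9, SOX5 and SOX6 are known to bind or activate in cartilage were called lower in most cases by 24 h of IL-1beta and by 72 h of TNF-alpha. Of 22 listed target genes 21 were in the table and tested. With IL-1beta 3 fell and 3 rose at 4 h, 11 fell and 2 rose at 12 h, 20 fell and none rose at 24 h, and all 21 fell at 72 h. The median log2 fold change of the list was 0.06, -0.36, -1.23 and -2.20 at these times, beside a median over all genes of -0.03, -0.02, -0.01 and 0.00. Over all genes 17.2%, 15.0%, 15.6% and 19.7% fell and 15.5%, 14.5%, 17.0% and 19.3% rose at these times. With TNF-alpha 2 fell and 2 rose at 4 h, 6 fell and 3 rose at 12 h, 7 fell and 3 rose at 24 h, and 19 fell and none rose at 72 h. The medians were 0.06, -0.22, -0.12 and -1.05, beside -0.02, -0.03, -0.02 and -0.01 over all genes, of which 10.6%, 13.8%, 11.9% and 18.3% fell and 10.9%, 14.6%, 13.2% and 17.8% rose. Leaving out 1 library moved the smaller counts. The falls with TNF-alpha numbered 3 at 12 h without control replicate c or TNF-alpha replicate c, and at 24 h they numbered 2, 11 and 4 without TNF-alpha replicates a, b and c, so the order of 12 and 24 h rests on single libraries. The 3 rises at 24 h of TNF-alpha became 1 without control replicate b or TNF-alpha replicate b. With IL-1beta at 4 h the rises ranged from 0 to 2 and the falls from 3 to 5. The list holds all 5 chondrocyte markers named above, so the marker sum moves with it. At 72 h that sum was 10700 to 12000 CPM with IL-1beta and 25400 to 32000 CPM with TNF-alpha, against 62900 to 76700 CPM in control. Over the same libraries the fibroblast and perichondrium markers summed to 16700 to 17200 CPM with IL-1beta and 4000 to 4380 CPM with TNF-alpha, against 10100 to 12600 CPM in control. The adipocyte markers summed to 679 to 695 CPM with IL-1beta and 238 to 346 CPM with TNF-alpha, against 273 to 390 CPM in control. The hypertrophic markers summed to 12300 to 13900 CPM with IL-1beta and 22700 to 26400 CPM with TNF-alpha, against 14600 to 16300 CPM in control. The share of mitochondrial counts was 0.574% to 0.594% in the IL-1beta libraries and 0.568% to 0.61% in the TNF-alpha libraries, against 0.384% to 0.443% in control. The part of these markers and of the mitochondrial share in the changes of the SOX trio was not tested.

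Matn3, which encodes the matrix protein matrilin-3, had the smallest p of the targets at 72 h of IL-1beta: 16.9 to 24.4 CPM, against 453 to 677 CPM in control (log2 fold change -4.90 ± 0.19, edgeR adjusted p = 7.46e-21). With TNF-alpha Matn3 had 409 to 490 CPM at 72 h, overlapping that control (log2 fold change -0.37 ± 0.16, edgeR adjusted p = 0.0695), and it had risen at 12 h by 0.61 ± 0.16 (edgeR adjusted p = 0.00366). Acan, the gene of aggrecan, had 892 to 940 CPM with IL-1beta and 2640 to 3390 CPM with TNF-alpha at 72 h, against 6160 to 8260 CPM in control. Its log2 fold changes were -3.05 ± 0.14 and -1.33 ± 0.14. At 12 h Acan had log2 fold changes of -0.07 ± 0.13 with IL-1beta and -0.09 ± 0.13 with TNF-alpha, and neither passed (edgeR adjusted p = 0.749 and 0.662). Other targets differed from Acan at 12 h: Col2a1, the gene of collagen II, fell by 0.71 ± 0.17 and 0.57 ± 0.17 (edgeR adjusted p = 0.00123 and 0.00893). Of the 21 tested targets 11 fell and 2 rose at 12 h of IL-1beta, and 6 fell and 3 rose at 12 h of TNF-alpha. Col11a1, a chain of cartilage collagen XI, fell at 72 h by 2.17 ± 0.12 with IL-1beta and by 1.09 ± 0.12 with TNF-alpha on the log2 scale. Fmod, the gene of the collagen-binding proteoglycan fibromodulin, fell by 2.38 ± 0.11 and by 0.87 ± 0.11. Over the list at 72 h the log2 fold changes reached from -5.78 for Matn1 to -0.47 for Chadl with IL-1beta, and from -1.36 for Fgfr3 to -0.11 for Epyc with TNF-alpha.

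**Figure D4:**
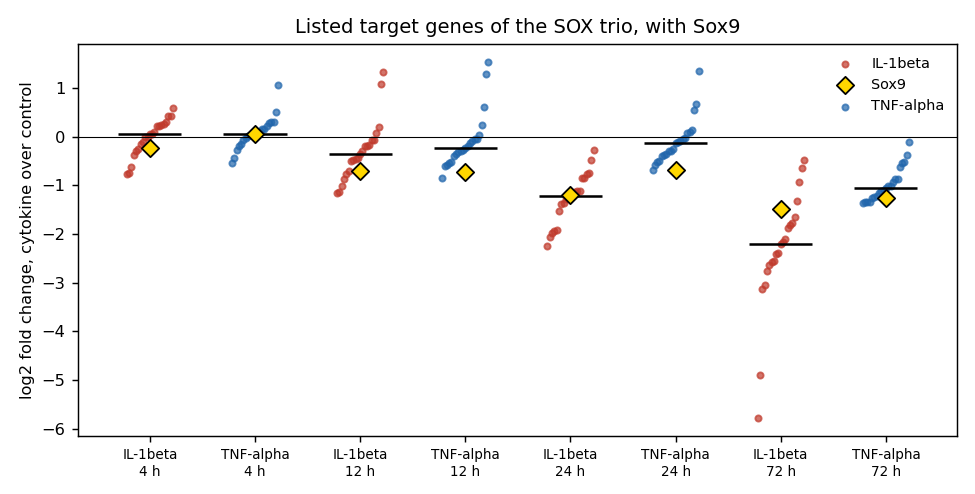
Log2 fold change of the 21 listed target genes (points, in rank order) over the control of the same time, with their median as a bar and Sox9 as a diamond. At 12 h Sox9 lies below the median of the targets with both cytokines, and at 72 h of IL-1beta the median of -2.20 lies below Sox9 at -1.48.

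Of the 16 other SOX genes listed, all were in the deposited counts and 8 passed the filter. Sox8, of the same branch of the family as Sox9, fell with IL-1beta at all 4 times, and at 72 h it had 5.32 to 6.13 CPM, against 19.3 to 26.2 CPM in control (log2 fold change -2.05 ± 0.17, edgeR adjusted p = 1.14e-12). With TNF-alpha Sox8 rose at 4 h by 0.50 ± 0.14 and fell at 72 h by 1.37 ± 0.15 on the log2 scale, and the values between, -0.08 ± 0.14 at 12 h and -0.21 ± 0.14 at 24 h, did not pass. The rise at 4 h crosses the divide between libraries, with 30.2 to 34.1 CPM against 18.5 to 25 CPM in control at 4 h. Those TNF-alpha libraries overlapped control at 12 h (28.5 to 30.9 CPM), which is on their side but not matched in time. Sox4 and Sox11, which belong to another branch of the family, went opposite ways at 72 h. Sox4 rose to 56.8 to 59.4 CPM with IL-1beta and 46 to 52.9 CPM with TNF-alpha, against 32.1 to 45.9 CPM in control (log2 fold changes 0.56 ± 0.13 and 0.36 ± 0.13). The call with TNF-alpha was lost without control 72 h replicate b, control 72 h replicate c or TNF-alpha 72 h replicate c. Sox11 fell to 3.73 to 4.34 CPM with IL-1beta and 2.79 to 3.89 CPM with TNF-alpha, against 5.93 to 7.53 CPM in control (log2 fold changes -0.70 ± 0.17 and -1.07 ± 0.17). Sox12, of the same branch, rose at 72 h of IL-1beta by 0.88 ± 0.17 and did not pass with TNF-alpha (-0.18 ± 0.18). Sox2 fell at 4 and 12 h of IL-1beta, by 0.58 ± 0.17 and 0.70 ± 0.21, at levels of a few CPM, although the count of SOX genes that fell at 4 h, 2, became 1 without control 4 h replicate a or IL-1beta 4 h replicate b. No value of Sox10 or Sox13 passed. Over the 8 genes the median log2 fold change at 72 h was -0.09 with IL-1beta and -0.05 with TNF-alpha.

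Among 16 listed coactivators and partners of SOX9, 4 rose and 2 fell at 72 h of IL-1beta and 4 rose and 4 fell at 72 h of TNF-alpha, with medians of 0.05 and -0.06. Over all genes 19.3% rose and 19.7% fell with IL-1beta at 72 h, and 17.8% rose and 18.3% fell with TNF-alpha, so these counts lie near the background. The 2 falls with IL-1beta became 1 without control 72 h replicate c or IL-1beta 72 h replicate a. Arid5b and Arid5a encode DNA-binding proteins that work with SOX9 at cartilage genes, and at 72 h both rose while Sox9 fell. Arid5b had 70.3 to 71.2 CPM with IL-1beta and 40.3 to 46.9 CPM with TNF-alpha, against 34.2 to 35.5 CPM in control (log2 fold changes 1.02 ± 0.09 and 0.34 ± 0.09). Arid5a had 17.1 to 19.4 CPM with IL-1beta and 14.2 to 16 CPM with TNF-alpha, against 9.03 to 10.1 CPM in control (log2 fold changes 0.96 ± 0.12 and 0.68 ± 0.11). Hif1a, the gene of a transcription factor known to raise SOX9 in low oxygen, rose with IL-1beta at all 4 times, by 0.71 ± 0.06 at 4 h and 0.31 ± 0.06 at 72 h. Barx2, a homeobox gene of early cartilage, had 3.13 to 4.67 CPM with IL-1beta and 0.108 to 0.214 CPM with TNF-alpha at 72 h, against 1.12 to 1.51 CPM in control (log2 fold changes 1.59 ± 0.21 and -3.15 ± 0.36). At 12 h Barx2 had fallen with both, by 1.53 ± 0.23 with IL-1beta and 1.60 ± 0.22 with TNF-alpha.

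Noncoding genes beside or within the SOX loci were low. 2610035D17Rik, a lncRNA gene at chr11:113043906-113201838 on the far side of Sox9 from BC006965 (chr11:112663927-112711356), fell with IL-1beta already at 4 h, to 6.27 to 8.09 CPM against 18 to 20.4 CPM in control (log2 fold change -1.33 ± 0.13, edgeR adjusted p = 3.69e-10). At 72 h 2610035D17Rik was lower by 1.38 ± 0.14 with IL-1beta and by 0.52 ± 0.13 with TNF-alpha. BC006965 was at 0.129 to 0.416 CPM at 72 h of IL-1beta, against 0.831 to 1.86 CPM in control. Sox6os lies within Sox6 (chr7:116031979-116032550) and had 2.23 to 2.83 CPM with IL-1beta and 1.15 to 1.73 CPM with TNF-alpha at 72 h, against 3.1 to 3.62 CPM in control. Its log2 fold changes were -0.32 ± 0.17 (edgeR adjusted p = 0.159) and -1.16 ± 0.18 (edgeR adjusted p = 3.14e-06). Sox5os1 had at most 1.09 CPM in the groups at 4, 24 and 72 h, and its only call was a rise of 1.70 ± 0.54 at 12 h of IL-1beta (edgeR adjusted p = 0.0158). The strand setting of the counting is not given in the sources used here, so reads of Sox6 and Sox6os, or of Sox5 and Sox5os1, cannot be told apart.

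The miRNA libraries bear on the trio because several miRNAs are known to target its members. Of 8 listed miRNAs 7 passed the filter, and 3 of 56 tests against control were called, all at 72 h. Over all 588 miRNAs tested 0.850%, 2.72%, 3.91% and 13.4% were called with IL-1beta at 4, 12, 24 and 72 h, and 0.680%, 1.53%, 4.25% and 29.1% with TNF-alpha. RefSeq sequences on GRCm38.p6 are shown for 5 of the 7 that passed, to let the seeds be compared, with the seed (bases 2 to 8) in capitals. Those of miR-145a-5p and miR-140-5p are not shown. Some RefSeq entries were left out by chromosome, so a missing sequence does not mean that RefSeq lacks it.
miR-140-3p: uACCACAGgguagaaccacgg
miR-101a-3p: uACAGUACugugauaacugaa
miR-101b-3p: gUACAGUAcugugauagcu
miR-194-5p: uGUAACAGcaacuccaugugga
miR-499-5p: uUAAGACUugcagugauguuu
No 2 of these share a seed as printed. The entry of miR-101b-3p begins with an extra base at its 5′ end, so that its seed is the seed of miR-101a-3p moved by 1 base.

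miR-145a-5p, known to target Sox9, rose at 72 h of IL-1beta to 242 to 286 CPM, against 129 to 152 CPM in control (log2 fold change 0.91 ± 0.16, edgeR adjusted p = 4.9e-05). With TNF-alpha miR-145a-5p had 164 to 169 CPM against the same controls, and its log2 fold change of 0.26 ± 0.16 did not pass (edgeR adjusted p = 0.227). At 12 and 24 h of IL-1beta its values of 0.50 ± 0.16 and 0.14 ± 0.16 did not pass (edgeR adjusted p = 0.0982 and 0.851). At 12 h the IL-1beta libraries had 119 to 176 CPM of it, against 85.2 to 106 CPM in control. The part of miR-145a-5p in the fall of Sox9 was not tested. miR-140-5p and miR-140-3p, made from the SOX9 target gene Wwp2, fell at 72 h of TNF-alpha by 0.66 ± 0.12 and 0.71 ± 0.20 on the log2 scale (edgeR adjusted p = 0.000125 and 0.00911). Both calls were lost in a fit of only the libraries compared (edgeR adjusted p = 0.169 and 0.212). The call of miR-140-3p was also lost without control 72 h replicate b or TNF-alpha 72 h replicate b (edgeR adjusted p = 0.0559 and 0.0879). With IL-1beta they had log2 fold changes of -0.26 ± 0.12 and -0.25 ± 0.20 at 72 h, and neither passed. The other 4 that passed the filter, listed for Sox9 (miR-101a-3p and miR-101b-3p), Sox5 (miR-194-5p) and Sox6 (miR-499-5p), were called in no comparison.

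The genes whose log2 CPM followed each member most closely over the 38 libraries are given as a description, since the libraries share their treatments. Among 12622 genes with a mean of at least 1 CPM they were Acsf2, Dnmt3a, Sept5, Stc2 and Slc35a2 for Sox9 (Pearson r from 0.938 to 0.951). For Sox5 they were Emp1, Pdzd8, Ptp4a1, Igf2 and Slc41a2 (r from 0.878 to 0.924), and for Sox6 they were Mboat2, Kmt2c, Slc40a1, Capn6 and Lrp6 (r from 0.885 to 0.909). Among the members, r with Sox9 was 0.735 for Sox5 and 0.516 for Sox6. The genes named above were picked for the highest r, so these values cannot be weighed against theirs.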

How the data were processed

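The counts of reads per gene and per mature miRNA were deposited by the authors, with gene lengths in the mRNA table. Per the submitters' processing notes Trimmomatic, cutadapt, STAR, featureCounts and the build mm10 were used, and the sources used here give no versions, annotation or strand setting. Per the labels rRNA was removed with the Ribo-Zero Gold kit. All deposited counts on named lines were whole numbers.

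The mRNA column of control 0 h replicate b was left out: it held 220180 counts, and its correlation with any other library was at most 0.189. The quasi-likelihood F test of edgeR 4.0.16, run in R 4.3.3 with limma 3.58.1, was applied to the counts in 1 fit with a coefficient per group, TMM scaling (factors 0.864 to 1.12), filterByExpr and Benjamini-Hochberg adjustment over all features (threshold 0.05). CPM and RPKM were computed from the deposited counts and lengths. Ratios were tested by exact permutation within times. The alternatives were DESeq2 1.42.0, its size factors, library totals, no filter, a replicate block, fewer or more libraries, another control for TNF-alpha at 4 h, leaving out each library and, for ratios, counts plus 1. The scripts were tested on simulated data. Figures were drawn with matplotlib 3.10.9 and tables handled with pandas 2.3.3 and NumPy 2.4.6 under Python 3.11.15.

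The members and lists were chosen with earlier results of these data known. From each list the 4 genes with the smallest p at 72 h of IL-1beta are named, with SOX genes of mean CPM of at least 1 and, for likeness, 5 genes a member. Other genes are named at the ends of a range, as markers or, for Col2a1, beside Acan, and miRNAs where called.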

Additional observations from a re-analysis of the deposited data

Results flagged for a closer look

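In 8 tests the effect on a member differed between times or between cytokines (interaction in edgeR, adjusted p under 0.05), each with 3 libraries a group. Not passing were Sox6 in the IL-1beta effect from 4 h, Sox5 and Sox6 in the TNF-alpha effect, and Sox9 between cytokines. Of all genes 30.6% were called in the IL-1beta effect from 4 h and 28.2% in that from 12 h. For the TNF-alpha effect the share was 8.54%, and between cytokines it was 25.4%. The IL-1beta effect on Sox9 was lower at 72 h than at 4 h by a log2 difference of -1.25 and lower than at 12 h by -0.77, and for Sox5 these values were -0.77 and -0.50. For Sox6 the IL-1beta effect at 72 h was less negative than at 12 h, with a log2 difference of 0.38. The TNF-alpha effect on Sox9 differed between 72 h and 12 h by -0.54. The IL-1beta over TNF-alpha difference at 72 h less that at 12 h was 0.60 for Sox6 and -0.34 for Sox5. The comparisons of IL-1beta at 72 h with 12 h, and of the cytokines with each other over time, were chosen after the values were seen. Their adjusted p-values in edgeR were 4.9e-05 for Sox9, 5.66e-05 for Sox5 and 0.000746 for Sox6 with IL-1beta, and 1.01e-06 for Sox6 and 0.00579 for Sox5 between the cytokines.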

How the results depend on the processing

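Of the 67 results tested against the alternatives, 23 kept their direction and their side of the threshold under all of them. The alternatives include the fit with the column that was otherwise left out. Some results, such as Sox6 with IL-1beta at 12 h, were lost in that fit alone. A count without that fit was not made. Log2 values follow in brackets or after the gene, and the cause of a change was not tested. No pairing of libraries by replicate letter was seen: deviations of libraries with the same letter correlated at -0.106 to 0.0751 over the genes. A weak pairing, or one limited to some genes, could be missed by this check. With the replicate letter as a block the calls lost were Sox6 in IL-1beta over TNF-alpha at 4 h (-0.18) and the Sox9/Sox6 ratio with IL-1beta (-0.267).

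With library totals alone, Sox9 passed in IL-1beta over control at 4 h (-0.32) and in IL-1beta over TNF-alpha at 4 h (-0.33) and 72 h (-0.31), Sox6 passed in control 24 h over 12 h (0.22), Sox5 in TNF-alpha over control at 72 h was lost (-0.17), and the uncalled values of Sox5 in control 24 h over 12 h (0.039) and of Sox6 in the IL-1beta effect, 72 h minus 4 h (0.058) turned sign. For IL-1beta at 4 h this scaling called 1943 genes as higher and 4890 as lower, where TMM called 2920 and 3239, and for TNF-alpha at 72 h it called 2248 as lower, where TMM called 3442. The share of rises among calls was 28.4% against 47.4% in the first of these and 67.1% against 49.3% in the second. No target then rose at 4 h of IL-1beta and 5 fell.

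With no low-count filter Sox9 passed in IL-1beta over control (-0.24) and over TNF-alpha (-0.24) at 4 h, its value over TNF-alpha at 12 h turned to -0.013, and Sox6 in IL-1beta over TNF-alpha at 4 h (-0.15), Sox5 at 72 h (-0.18) and Sox5 in its change from 12 h (-0.30) were lost; 8 targets rose and 5 fell at 4 h of IL-1beta. With only the libraries compared, Sox9 in IL-1beta over control at 4 h (-0.22) and over TNF-alpha at 4 h (-0.27) and 72 h (-0.21) and Sox5 in TNF-alpha over control at 4 h (0.19) passed, and Sox6 in IL-1beta over TNF-alpha at 4 h (-0.18) and 12 h (-0.24) and Sox5 at 72 h (-0.18) were lost, as were miR-140-5p (-0.57) and miR-140-3p (-0.63) at 72 h of TNF-alpha. With DESeq2, Sox5 in TNF-alpha over control at 4 h (0.17), Sox6 in IL-1beta over TNF-alpha at 24 h (-0.16), Sox5 in control 4 h over 0 h (0.19) and Sox6 in the TNF-alpha effect, 72 h minus 12 h (-0.24) passed. With its size factors in edgeR Sox6 in IL-1beta over TNF-alpha at 4 h (-0.17) was lost. Against control at 12 h, Sox9 with TNF-alpha at 4 h was -0.18.

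With all 39 libraries, the column otherwise left out among them, these calls were lost. With IL-1beta over control they were Sox5 (0.32) and Sox6 (-0.42) at 4 h, Sox9 (-0.69) and Sox6 (-0.85) at 12 h, Sox6 (-0.74) at 24 h, and Sox5 (-0.46) and Sox6 (-0.49) at 72 h. With TNF-alpha over control they were Sox6 (-0.25) at 4 h, Sox9 (-0.70) and Sox6 (-0.59) at 12 h, Sox9 (-0.66) and Sox6 (-0.57) at 24 h, and Sox5 (-0.27) and Sox6 (-0.83) at 72 h. With IL-1beta over TNF-alpha they were Sox6 (-0.17) at 4 h and (-0.26) at 12 h, Sox9 (-0.52) at 24 h, and Sox5 (-0.19) and Sox6 (0.34) at 72 h. In controls they were Sox9 (0.70) and Sox6 (0.71) in 4 h over 0 h, and Sox9 in 24 h over 12 h (-0.55) and 72 h over 12 h (-0.46). Between times they were Sox9 in the TNF-alpha effect (-0.55), Sox9 (-0.79), Sox5 (-0.52) and Sox6 (0.36) in the IL-1beta effect from 12 h, and Sox5 (-0.34) and Sox6 (0.60) between cytokines. In that fit 17 targets fell at 72 h of IL-1beta and 3 at 72 h of TNF-alpha.

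Leaving out 1 library in turn, results that changed side or sign ranged as follows. In IL-1beta over TNF-alpha, Sox6 ranged from -0.20 to -0.12 at 4 h, from -0.29 to -0.21 at 12 h and from -0.20 to -0.10 at 24 h, Sox5 from -0.24 to -0.10 at 72 h, and Sox9 from -0.046 to 0.12 at 12 h. Against control, Sox5 with IL-1beta at 12 h ranged from -0.0046 to 0.10 and Sox9 with TNF-alpha at 4 h from -0.026 to 0.087. In control 4 h over 0 h Sox9 ranged from 0.23 to 0.52 and Sox6 from 0.19 to 0.42, and in control 72 h over 12 h Sox6 from -0.00033 to 0.068. Sox6 in the TNF-alpha effect, 72 h minus 12 h, ranged from -0.30 to -0.20, and the Sox9/Sox6 ratio with IL-1beta from -0.291 to -0.236. With 3 libraries a group and a coefficient of variation of 8.26% between libraries, smaller changes may not be detectable.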
